A study of Mus musculus with 4 samples.

Results

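Mitochondrial DNA is a small circular genome, present in many copies per cell, that lies outside the nucleus and carries no histones. It encodes 2 rRNAs, 22 tRNAs and 13 subunits of the respiratory chain complexes, and its one long stretch without genes, the control region, holds the promoters and the start of heavy strand replication. The enzymes that maintain CpG methylation in mammals are known for their work on nuclear DNA, and how much methylation mitochondrial DNA carries has long been disputed. Sequences copied from mitochondrial DNA also sit in nuclear chromosomes, so a short read from such a sequence can have more than 1 place of origin.

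The CpG sites described here are all sites listed on chrM in RRBS-seq (reduced representation bisulfite sequencing) tables of mouse embryonic stem (ES) cells. Bisulfite turns unmethylated cytosines into bases read as T, so that a read still showing C at a CpG counts as methylated. The mm9 mitochondrial reference of 16299 bp holds 287 CpG sites, of which 207 had a read in at least 1 library, among 7862365 sites listed genome-wide, and 80 had none. Chr4-cl KO ES cells lack the cluster of KRAB zinc finger protein genes on chromosome 4, removed with CRISPR/Cas9, and WT cells retain it. Both genotypes were grown in serum medium with 20% FCS and LIF, or for 1 week in 2i medium with vitamin C, which lowers methylation across the nuclear genome. There was 1 library for each of the 4 combinations, so every test below compares 2 libraries and not conditions. The Chr4-cl KO cells derive from B6;129 mice with a cre/ERT allele (Cre fused to an estrogen receptor domain) in the ROSA locus, and KO and WT clones were picked one by one after editing. Genotype and clone can therefore not be told apart.

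The reads on mitochondrial DNA were few. WT serum had 1887 reads over 185 sites, WT 2i + Vitamin C had 916 over 133, Chr4-cl KO serum had 820 over 115 and Chr4-cl KO 2i + Vitamin C had 609 over 89. A read that covers several neighbouring CpG sites is counted at each of them. The median read site had 4, 3, 4 and 2 reads in these libraries, and 63, 32, 22 and 16 sites reached 10 reads. Of the reads over all listed CpG sites, 0.00269%, 0.00101%, 0.000928% and 0.00143% lay on mitochondrial DNA. WT serum therefore had both the highest share of mitochondrial reads and the most sites read. Intervals below are exact (Clopper-Pearson) 95% intervals. They and the tests treat the reads counted at each site as independent. Reads of neighbouring sites overlap and PCR copies were not marked, so intervals and p-values cover counting error at best.

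Sequence around the sites on which the results turn is shown first, so that the values can be read against it. Each line gives the plus strand of the mm9 reference with 30 bases on either side of the named sites, and CpG dinucleotides are in capitals. The first 4 lie in mt-Co1 (subunit of cytochrome c oxidase, complex IV), the next in mt-Cytb (cytochrome b, complex III), the next in mt-Rnr2 (the large rRNA) and the last in the control region. In mt-Cytb the named site is chrM_14713, with 5 of 22 WT serum reads methylated. Other well-read sites of that gene, such as chrM_14711 with 3 of 23, also had methylated reads.
chrM:5342-5424, read in WT serum and in no other library: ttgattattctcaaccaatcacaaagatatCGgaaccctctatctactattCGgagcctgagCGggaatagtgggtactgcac
chrM:5696-5757, with the site of most reads in Chr4-cl KO serum: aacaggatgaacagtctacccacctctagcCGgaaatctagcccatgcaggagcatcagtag
chrM:6233-6306, methylated in WT serum among reads from all libraries: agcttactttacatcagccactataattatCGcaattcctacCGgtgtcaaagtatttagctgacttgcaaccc
chrM:6392-6462, with every WT serum read methylated: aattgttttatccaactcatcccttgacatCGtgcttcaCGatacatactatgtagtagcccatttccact
chrM:14683-14744, with the well-read methylated site of mt-Cytb: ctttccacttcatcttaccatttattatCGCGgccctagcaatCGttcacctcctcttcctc
chrM:1973-2034, with the site of most reads in Chr4-cl KO 2i + Vitamin C: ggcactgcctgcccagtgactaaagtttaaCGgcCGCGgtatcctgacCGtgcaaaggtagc
chrM:15670-15774, with the sites of most reads in WT serum: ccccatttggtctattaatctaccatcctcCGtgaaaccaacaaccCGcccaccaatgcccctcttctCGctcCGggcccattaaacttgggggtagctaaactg

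Pooled over the molecule, 178 of 1887 reads were methylated in WT serum, which is 9.43% (8.15 to 10.8). In WT 2i + Vitamin C it was 15 of 916 reads, or 1.64% (0.919 to 2.69). In Chr4-cl KO serum it was 14 of 820 reads, or 1.71% (0.936 to 2.85), and in Chr4-cl KO 2i + Vitamin C 6 of 609 reads, or 0.985% (0.362 to 2.13). The interval of WT serum lay above those of the other 3 libraries, which overlapped one another. This excess of WT serum was known when the mitochondrial sites were chosen for description. The other 3 libraries together had 35 methylated reads of 2345, or 1.49%, and at that level WT serum would have had about 150 fewer methylated reads (149.8).

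Between the libraries in serum, the pooled methylation level of Chr4-cl KO minus that of WT cells was -7.73 percentage points (95% Newcombe interval of the difference, -9.29 to -6.04), a ratio of 5.53 between WT and KO. Fisher's exact test, two-sided and adjusted over 22 chromosomes, gave p = 1.65e-15 for these 2 libraries. Of the 22 chromosomes, 95.5% were called at an adjusted p under 0.05 in this comparison, and all 21 nuclear chromosomes were lower in KO, with differences from -3.62 to -1.01 points. By 1-kb stretch the nuclear direction was the other one, since 37.6% of stretches were called but 1.47% as lower in KO. In 2i + Vitamin C the mitochondrial difference between KO and WT was -0.652 points (-1.83 to 0.663), with an adjusted p of 0.371 by the same exact test, while 95.5% of chromosomes were called. There all 21 nuclear chromosomes were higher in KO, by 1.06 to 5.48 points, a sign opposite to that of the mitochondrial value. By 1-kb stretch the nuclear direction was again the other one, since 24.5% of stretches were called and 21.9% as lower in KO. The called stretches thus mostly had the sign of the mitochondrial value. The difference between the media in the effect of genotype was not tested.

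In WT cells the mitochondrial methylation level dropped by 7.80 points from serum to 2i + Vitamin C (-9.34 to -6.18, adjusted p = 2.88e-17, same exact test), and 100% of chromosomes were called. Both comparisons with a large difference use the same WT serum library. In Chr4-cl KO cells the change from serum to 2i + Vitamin C was -0.722 points (-1.98 to 0.616, adjusted p = 0.363, same exact test), while nuclear methylation was 22% and 14.2% of reads and 95.5% of chromosomes were called. The mitochondrial level of the KO libraries was thus not shown to differ between the media at this depth, and intervals of the differences allow a fall of up to 1.98 points.

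**Figure D1:**
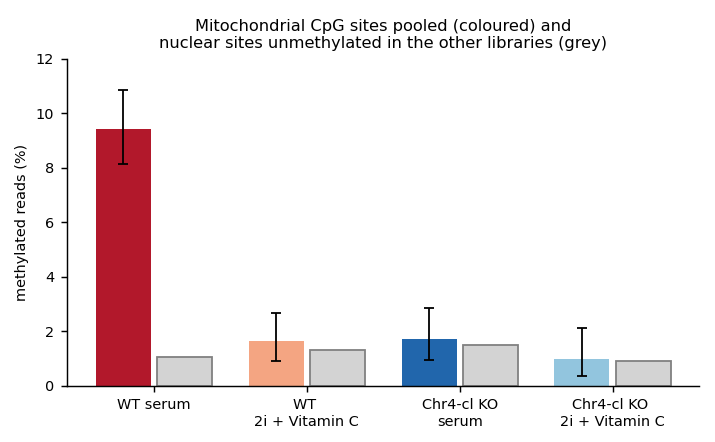
Bars show methylated reads as a percentage of all reads, pooled over mitochondrial CpG sites (coloured, with exact 95% intervals) and over nuclear sites that are unmethylated in the other libraries (grey), for the 4 libraries. WT serum stands at 9.43% against 1.06% at its nuclear sites, and the other libraries lie between 0.985% and 1.71%.

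To see how often a site without methylation is still read as methylated, nuclear sites were taken that had at least 20 reads and at most 2% methylation in each of the other 3 libraries. At these sites 1.06% of reads were methylated in WT serum, 1.32% in WT 2i + Vitamin C, 1.48% in Chr4-cl KO serum and 0.915% in Chr4-cl KO 2i + Vitamin C. WT serum was not the highest of the 4 on this measure. These nuclear sites were deeply read, with 11169125 reads over 63324 sites in WT serum, where the median mitochondrial read site had 4 reads. The measure therefore cannot show how often thinly read sites without methylation are read as methylated. The mitochondrial levels of the other 3 libraries had intervals that included their nuclear value, and that of WT serum did not.

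The methylated reads of WT serum were spread over many sites. At least 1 methylated read was found at 98 of its 185 read sites (53.0%), against 13 of 133 in WT 2i + Vitamin C, 10 of 115 in Chr4-cl KO serum and 6 of 89 in Chr4-cl KO 2i + Vitamin C. Of the 98 sites, 46 had 1 methylated read, 33 had 2, 12 had 3, 5 had 4 and 2 had 5. It took 31 sites to hold 50% of the methylated reads of WT serum, and 27 sites held 50% of all its reads. The 5 sites with the most methylated reads held 12.4% of them. In the other libraries the top 5 held 46.7%, 64.3% and 83.3%, of only 15, 14 and 6 methylated reads. No single site thus carried the WT serum level.

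**Figure D2:**
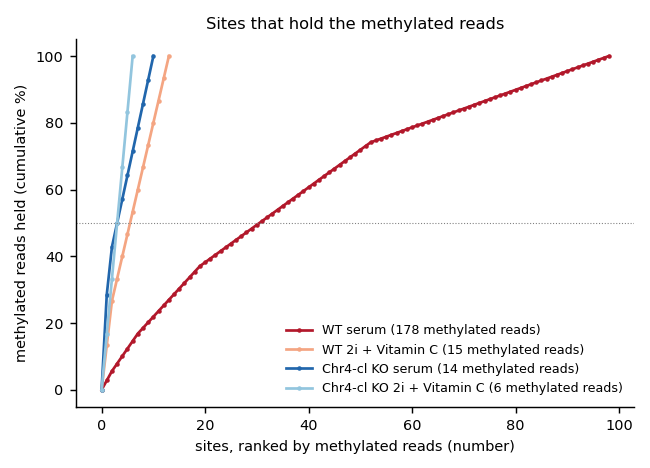
Cumulative percentage of methylated reads held by mitochondrial CpG sites ranked by their number of methylated reads, for the 4 libraries, with the dotted line at 50%. The WT serum curve climbs slowly and ends at 98 sites, while the other curves end at 13, 10 and 6 sites.

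Neighbouring sites share reads, so the sites were also joined into 104 runs in which consecutive CpG sites lie at most 50 bp apart. WT serum had reads in 58 runs and methylated reads in 36 of them, and the other libraries had methylated reads in 9 of 43, 9 of 39 and 4 of 29 runs. Taking only the site with the most methylated reads of each run, the WT serum methylated calls come from at least 76 distinct reads. The same count was 10, 13 and 4 in the other libraries. Both reads of a pair can fall in different runs, so the number of distinct DNA fragments can be lower than these counts. The level was not even, however. The chi-square of methylated against unmethylated reads over the sites of WT serum was 3.92 times its degrees of freedom, and 1.98 times over the 63 sites with 10 or more reads. The other libraries had ratios of 1.64, 0.871 and 1.47 over all read sites.

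Sites read in 2 libraries could be compared one by one. Among 129 sites read in both WT serum and WT 2i + Vitamin C, the methylated share was higher in WT serum at 64, lower at 11 and equal at 54. Against Chr4-cl KO serum it was higher at 58, lower at 6 and equal at 47 of 111 sites. Against Chr4-cl KO 2i + Vitamin C it was higher at 38, lower at 3 and equal at 31 of 72 sites. All but 1 of the ties were sites with no methylated read in either library. The same WT serum library enters all 3 counts. Of the 98 sites with a methylated read in WT serum, 81 were read in another library. Of the 98, 18 (18.4%) also had a methylated read in another library, which is 62.1% of the 29 sites with one there. Among all 185 sites read in WT serum, 53.0% had a methylated read.

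**Figure D3:**
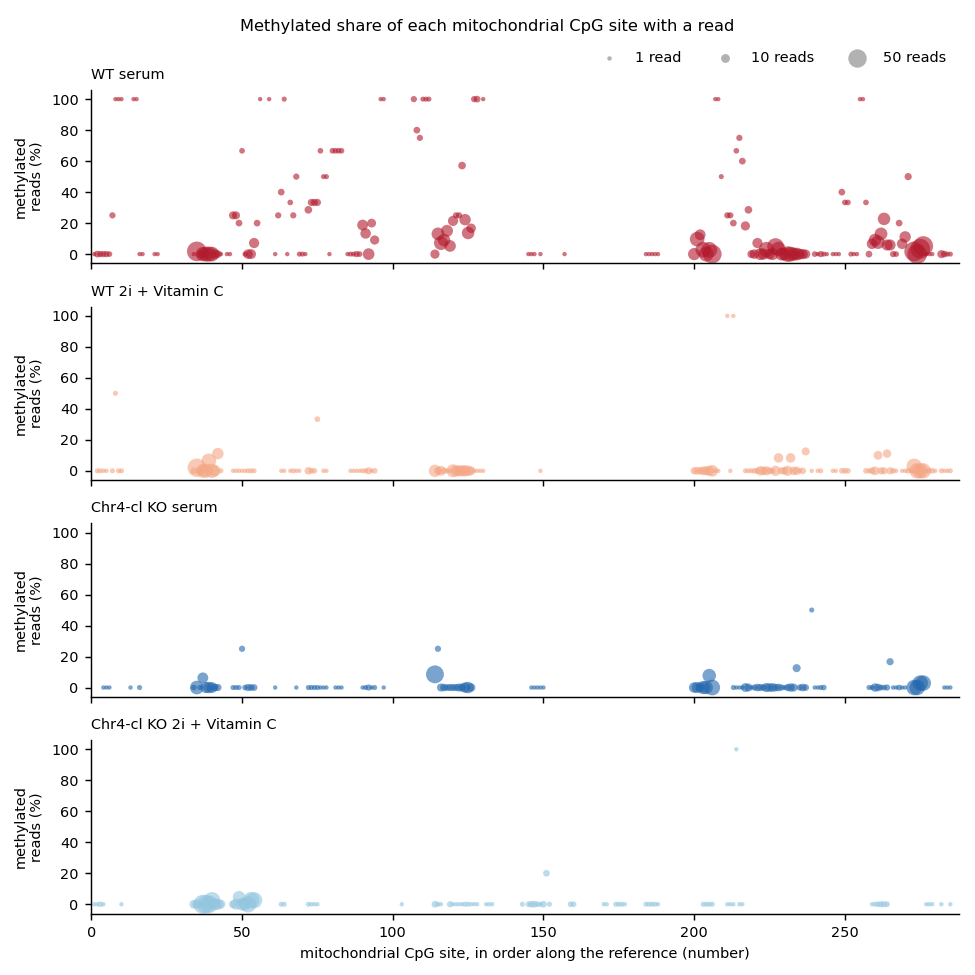
Methylated reads (% of the reads of a site) at each mitochondrial CpG site with a read, in order along the reference, in 1 panel per library, with the point area growing with the number of reads. WT serum has raised values at sites along most of the read part of the molecule, and its sites at 100% are small points with 5 reads or fewer.

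By 1-kb stretch, WT serum had methylated reads in 11 of the 16 stretches with reads, and no stretch held more than 15.7% of them. Among 13 stretches with at least 10 reads in WT serum, its methylation level was above that of the other 3 libraries pooled in 11, and above each of those with a read in 9. Of these 13, stretches 11 and 14 had no methylated read in WT serum. Stretch 11 had only 26 reads there, of which 21 lay at chrM_10998. Stretch 14 (chrM:13001-14000, the end of mt-Nd5 and most of mt-Nd6) had 0 of 166 reads methylated, which allows a share of up to 1.81% by 3 counts, and 2 of 63 and 2 of 56 in WT 2i + Vitamin C and Chr4-cl KO serum. Stretches 8, 9, 10 and 17 had 4, 1, 0 and 2 reads in WT serum, too few to show a level. The excess was thus present along much of the read part of the molecule but did not cover all of it.

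The level was highest in a block of neighbouring stretches, which is singled out here after its values were seen. Stretches 4 to 7, from within mt-Nd1 to just past mt-Co1, had 86 of 368 reads methylated in WT serum (23.4%, 19.1 to 28.0) and held 48.3% of its methylated reads with 19.5% of its reads. In the same stretches 1 of 207 reads was methylated in WT 2i + Vitamin C, 5 of 172 in Chr4-cl KO serum and 0 of 32 in Chr4-cl KO 2i + Vitamin C, the last allowing up to 9.38% by 3 counts. All other stretches together had 92 of 1519 reads methylated in WT serum (6.06%, 4.91 to 7.38), against 1.97%, 1.39% and 1.04% in the other libraries. WT serum was therefore the highest library inside and outside this block. Stretches 6 and 7 lie in bases with a nuclear copy at 97.4% identity. Stretch 4, at 20 of 62 reads in WT serum, has no such copy at 95% or more.

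**Figure D4:**
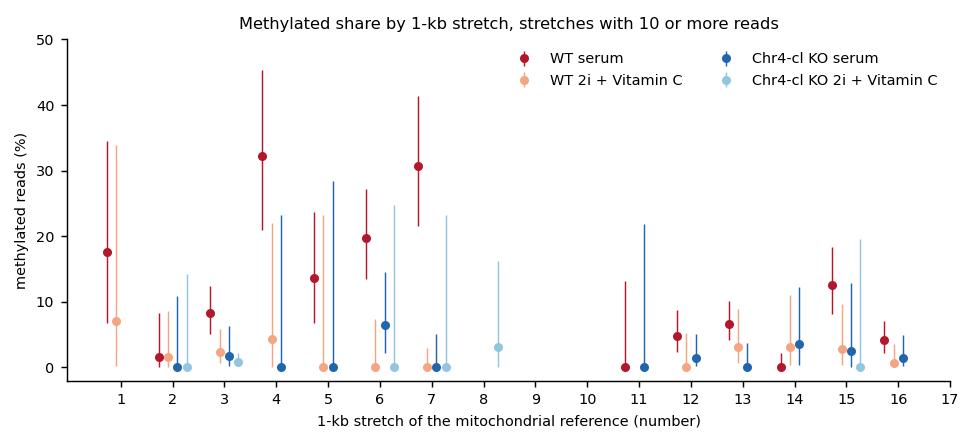
Methylated reads (%) by 1-kb stretch of the mitochondrial reference for the 4 libraries, in stretches with 10 or more reads of that library, with exact 95% intervals. WT serum reaches 32.3% in stretch 4 and 30.8% in stretch 7, is at 0% in stretches 11 and 14, and no other library exceeds 7.14%.

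Only stretch 3 (chrM:2001-3000, mt-Rnr2, a tRNA gene and the start of mt-Nd1) had at least 100 reads in all 4 libraries. Its level was 20 of 243 reads in WT serum (8.23%), 4 of 170 in WT 2i + Vitamin C (2.35%), 2 of 111 in Chr4-cl KO serum (1.80%) and 4 of 454 in Chr4-cl KO 2i + Vitamin C (0.881%). In serum the difference between KO and WT was -6.43 points with an adjusted p of 0.0482 (exact test of Fisher, Benjamini-Hochberg adjustment over all 1-kb stretches of the genome). It was the 1 stretch called of 3 tested on mitochondrial DNA, where 37.6% of all stretches tested were called, 1.47% as lower in KO. The other 2, stretches 12 and 16, were at 4.83% and 4.15% in WT and at 1.42% and 1.39% in KO, with adjusted p of 0.243 and 0.275 by the same exact test.

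Between the media in WT cells, stretch 3 fell by 5.88 points (adjusted p = 0.0223) and stretch 16 differed by -3.51 points (adjusted p = 0.0506, both by the exact test). So 1 of 2 mitochondrial stretches was called, where 78.2% of stretches were called genome-wide and 69.5% as lower. In 2i + Vitamin C, KO differed from WT in stretch 3 by -1.47 points (adjusted p = 0.410, exact test; 0 of 1 stretch called, with 24.5% genome-wide and 21.9% as lower). In KO cells stretch 3 was also the 1 tested between the media and was not called (77.9% genome-wide, 77.7% as lower).

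Single sites gave no call. With at least 10 reads in both libraries, 22 mitochondrial sites could be tested in serum between KO and WT and 7 in 2i + Vitamin C, 28 between the media in WT and 5 in KO. None was called at an adjusted p under 0.05 by Fisher's exact test, where 4.5%, 1%, 37.6% and 32.8% of sites genome-wide were called. At an unadjusted p under 0.05 the counts were 0, 0, 1 and 0, where 12.2%, 6.5%, 41.9% and 36.7% of sites passed. That 1 site, chrM_6113 in mt-Co1 inside a CCGG, had 3 of 14 reads methylated in WT serum and 0 of 24 in WT 2i + Vitamin C (unadjusted p = 0.0431, adjusted p = 0.105, exact test), and is named after its value was seen.

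Sites with the most methylated reads in WT serum lay in mt-Co1 and mt-Cytb, 7 of them by a tie for the fifth place. Those in mt-Co1 align to nuclear sequence at 97.4% or 99.9% identity, and the one in mt-Cytb at 93.0%. The site chrM_6431 was methylated in 5 of 5 reads and its neighbour chrM_6422 in 4 of 4. In WT 2i + Vitamin C and in Chr4-cl KO 2i + Vitamin C each of the pair had 1 read, unmethylated, and in Chr4-cl KO serum none. Near the start of mt-Co1, chrM_5372 had 4 of 4 and chrM_5393 had 4 of 5 reads methylated in WT serum, and neither site was read elsewhere. At these 4 sites the other libraries had too few reads for a comparison.

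Further along mt-Co1, chrM_6263 had 4 of 7 reads methylated in WT serum, against 0 of 17 in WT 2i + Vitamin C, 0 of 8 in Chr4-cl KO serum and 0 of 1 in Chr4-cl KO 2i + Vitamin C. At chrM_6275, inside a CCGG cut by MspI, the counts were 4 of 18, 0 of 18, 0 of 15 and 0 of 2. In mt-Cytb, chrM_14713 had 5 of 22 reads methylated in WT serum and 0 of 6, 0 of 3 and 0 of 4 in the other libraries. At these 3 sites WT serum was the one library with methylated reads.

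The most deeply read sites gave lower values. The neighbouring control region sites chrM_15700, chrM_15716, chrM_15738 and chrM_15743, had 58 reads each in WT serum, of which 1, 0, 2 and 3 were methylated. They had 1, 0, 0 and 0 of 34 in WT 2i + Vitamin C, 0, 0, 1 and 1 of 35 in Chr4-cl KO serum, and no read in Chr4-cl KO 2i + Vitamin C. In mt-Rnr2, chrM_1912 had 1 of 57, 1 of 50, 0 of 27 and 0 of 11 reads methylated in WT serum, WT 2i + Vitamin C, Chr4-cl KO serum and Chr4-cl KO 2i + Vitamin C, and chrM_2003 had 0 of 29, 0 of 27, 1 of 16 and 0 of 53. At these rRNA gene sites WT serum did not stand apart. At the site chrM_5726 in mt-Co1, 0 of 11 reads were methylated in WT serum, 0 of 21 in WT 2i + Vitamin C, 4 of 47 in Chr4-cl KO serum and 0 of 5 in Chr4-cl KO 2i + Vitamin C.

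By the role of the genes, the WT serum level was lowest in the control region among roles with over 100 reads. Complex IV genes had 56 of 237 reads methylated (23.6%, 18.4 to 29.6), all of them in mt-Co1. That gene had 233 of the reads, while mt-Co2 had 4 and mt-Co3 had 0. All of mt-Co1 lies in bases with a nuclear copy at 97.4% identity, described below, and the origin of its reads was not tested. Complex III, encoded by mt-Cytb, had 29 of 219 (13.2%, 9.05 to 18.5). Complex I genes, which encode subunits of NADH dehydrogenase, had 69 of 845 (8.17%, 6.41 to 10.2). The rRNA genes had 18 of 318 (5.66%, 3.39 to 8.80) and the control region 6 of 252 (2.38%, 0.879 to 5.11). The tRNA genes had 0 of 15 reads, which allows a share of up to 20.0% by 3 counts, and complex V genes (ATP synthase) had 1 read.

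In the other libraries no role with over 100 reads exceeded 3.29%. Complex IV genes had 0 of 171 methylated reads in WT 2i + Vitamin C, which allows a share of up to 1.75% by 3 counts, 5 of 152 in Chr4-cl KO serum and 1 of 67 in Chr4-cl KO 2i + Vitamin C. The control region had 1 of 152, 2 of 143 and 0 of 5. Complex I genes had 6 of 272, 4 of 334 and 1 of 32, and mt-Cytb 2 of 75, 1 of 43 and 0 of 17. WT serum was above the other 3 libraries in each of these roles. Its exact interval lay apart from all 3 others for complex IV, and overlapped that of at least 1 library in the rest.

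Complex I genes differed among themselves in WT serum. In mt-Nd1 29 of 73 reads were methylated (39.7%, 28.5 to 51.9), over 22 sites with at most 7 reads each. In mt-Nd2 it was 10 of 73 (13.7%, 6.77 to 23.8) over 7 sites. In mt-Nd4 it was 10 of 228 (4.39%) over 10 sites and in mt-Nd5 20 of 458 (4.37%) over 28 sites, with intervals below that of mt-Nd1. Levels by gene and role were not separated from the depth of the sites, which is described next. In mt-Nd6, the one protein gene on the other strand, 0 of 11 reads were methylated. In the other libraries mt-Nd1 had 1 of 25, 0 of 15 and 0 of 9, and mt-Nd5 5 of 155, 2 of 146 and 1 of 6.

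The depth of a site moved with its level in WT serum. Sites with 1 to 9 reads had 107 of 348 reads methylated (30.7%, 25.9 to 35.9), sites with 10 to 20 reads 33 of 464 (7.11%, 4.95 to 9.84) and sites with over 20 reads 38 of 1075 (3.53%, 2.51 to 4.82). The 122 sites with 1 to 9 reads thus held 60.1% of the methylated reads. At the same 122 sites, WT 2i + Vitamin C had 3.26%, Chr4-cl KO serum 0.980% and Chr4-cl KO 2i + Vitamin C 1.06%. At sites with over 20 reads in WT serum these libraries had 1.31%, 1.40% and 0.435%. Split by their own depth, the other libraries showed no such gap, with 2.15% and 1.41% at 1 to 9 and at 10 or more reads in WT 2i + Vitamin C, 1.57% and 1.80% in Chr4-cl KO serum, and 1.37% and 0.864% in Chr4-cl KO 2i + Vitamin C.

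The differences that involve WT serum were smaller where more reads were required. At the 63 sites with 10 or more reads in WT serum, 71 of 1539 reads were methylated there (4.61%, 3.62 to 5.78), and 12 of 713 at the same sites in Chr4-cl KO serum (1.68%, 0.873 to 2.92). Pooled over the 22 sites with at least 10 reads in both libraries, 24 of 754 reads were methylated in WT and 9 of 501 in KO, a difference of -1.39 points that did not pass the exact test (adjusted p = 0.152). Between the media in WT cells the same requirement left 28 sites, with 31 of 927 reads methylated in serum and 7 of 568 in 2i + Vitamin C, a difference of -2.11 points (adjusted p = 0.0109, exact test). Over the 5 sites with 10 or more reads in all 4 libraries both directions were reversed, with 1 of 182 reads methylated in WT serum (0.549%), 1 of 94 in Chr4-cl KO serum (1.06%), 3 of 165 in WT 2i + Vitamin C and 1 of 204 in Chr4-cl KO 2i + Vitamin C. Over the 46 sites read in all 4 libraries WT serum was again highest, with 7.69%, 1.79%, 2.10% and 0.769%. At the 33 sites read in WT serum and in no other library, 29 of 58 reads were methylated (50%), and at its other 152 sites 149 of 1829 (8.15%).

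Thinly read nuclear sites were also more methylated than deeply read ones. In WT serum, 58.3% of reads were methylated at nuclear sites with 1 to 9 reads and 21.7% at those with 10 or more. In the other libraries these values were 23.7% and 11.4%, 56.0% and 20.4%, and 25.7% and 10.4%. In Chr4-cl KO serum the nuclear gap was thus as wide as in WT serum, while its mitochondrial sites showed none.

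Sites where 50% or more of at least 3 reads were methylated numbered 17 in WT serum and 0 in each other library. These 17 sites had 49 of 69 reads methylated in WT serum, against 0 of 24, 1 of 20 and 1 of 29 at the same sites in the other libraries. They were picked by their level, so this is a description. Without them, 129 of 1818 WT serum reads were methylated (7.10%, 5.96 to 8.37), against 1.68%, 1.63% and 0.862%.

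MspI cuts at CCGG, of which the mitochondrial reference has 11, so most of the molecule is far from a cut. Over 500 bp from the nearest CCGG lay 53.0% of the mitochondrial reads in WT serum, 35.3% in WT 2i + Vitamin C, 45.0% in Chr4-cl KO serum and 13.5% in Chr4-cl KO 2i + Vitamin C, against 0.144% to 5.55% of nuclear reads. WT serum had 13.1% of reads methylated inside CCGG, 9.44% at 1 to 50 bp, 9.34% at over 50 to 200 bp, 34.9% at over 200 to 500 bp and 6.80% further away. It was above the other libraries in each of these classes. The fragment from chrM:8400 to chrM:15742, at 7342 bp the longest between cuts, held 1094 of the 1887 reads of WT serum and 62 of its methylated reads.

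Nuclear copies of the sequence were located by aligning the nuclear chromosomes of mm9 to the mitochondrial reference. Stretches of at least 100 bp with at least 95% identity numbered 8. The longest was chr1:24618374-24623027, a copy of bases 6390 to 11042 at 99.9% identity, and the next was chr2:22442808-22446054, a copy of bases 4441 to 7699 at 97.4%. At mitochondrial sites with such a copy 71 of 961 WT serum reads were methylated (7.39%, 5.81 to 9.23), and at the 142 sites without one 107 of 926 (11.6%, 9.57 to 13.8). Mitochondrial sites under single copies, which partly overlap, differed in WT serum. For the copies on chromosomes 2 and 1 they had 57 of 238 (23.9%) and 13 of 72 reads (18.1%) methylated. For those on chromosomes 13 and 12 it was 5 of 412 (1.21%) and 6 of 252 (2.38%). Those of the 142 sites that were read all aligned to nuclear sequence too, at under 95% identity. In the other libraries the 142 sites had 11 of 427, 5 of 367 and 5 of 511 methylated reads. There KO differed from WT by -10.2 points in serum (exact test, adjusted p = 4.35e-11). The WT serum excess was thus not limited to sites with a copy at 95% identity or more. Sites with no nuclear alignment had no reads, so they allow no comparison.

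The copies had their own reads in the tables. At 176 CpG sites of the copies that align to a mitochondrial CpG, 186 of 663 reads were methylated in WT serum (28.1%, 24.7 to 31.6), 8 of 550 in WT 2i + Vitamin C (1.45%), 8 of 194 in Chr4-cl KO serum (4.12%) and 593 of 6318 in Chr4-cl KO 2i + Vitamin C (9.39%, 8.68 to 10.1). Chr4-cl KO 2i + Vitamin C thus had the most reads on the copies, 10.4 for each mitochondrial read against 0.237 to 0.600 in the other 3. Its mitochondrial reads were the fewest in number but not as a share of all reads. On the chromosome 1 copy alone the level was 33.2%, 2.13%, 1.98% and 10.5%. Pooled over the copies, WT serum was the highest library as well. On the chromosome 2 copy it was also highest, at 14.7% against 10.9% in Chr4-cl KO 2i + Vitamin C. The chromosome 13 copy had 0 of 38 methylated reads in WT serum and 24 of 951 in Chr4-cl KO 2i + Vitamin C. On the chromosome 6 copy all 12 reads in WT serum and all 6 in Chr4-cl KO serum were methylated. These were 4 and 2 reads at each of 3 neighbouring sites, which can be the same reads counted at each. Chr4-cl KO 2i + Vitamin C had 41 of 436 reads methylated on this copy (9.40%).

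Chr4-cl KO 2i + Vitamin C had an uneven set of mitochondrial reads. Stretch 3 held 454 of its 609 reads, and stretch 14 had none. Over bases 12446 to 13400, which have a copy on chromosome 13 at 95.2% identity, it had 0 mitochondrial reads and 951 on the copy, while WT serum had 412 and 38, WT 2i + Vitamin C 148 and 19, and Chr4-cl KO serum 122 and 3. With mitochondrial reads and reads of the copies added together, the methylation level was 14.3% of 2550 reads in WT serum, 1.57% of 1466 in WT 2i + Vitamin C, 2.17% of 1014 in Chr4-cl KO serum and 8.65% of 6927 in Chr4-cl KO 2i + Vitamin C. Counted in this way, KO was 7.08 points higher than WT in 2i + Vitamin C (exact test, adjusted p = 1.89e-27), the reverse of the difference on mitochondrial DNA alone. In KO cells 2i + Vitamin C then stood 6.48 points above serum (exact test, adjusted p = 3.46e-16). How the authors' mapping divided reads between the molecule and its copies was not tested.

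**Figure D5:**
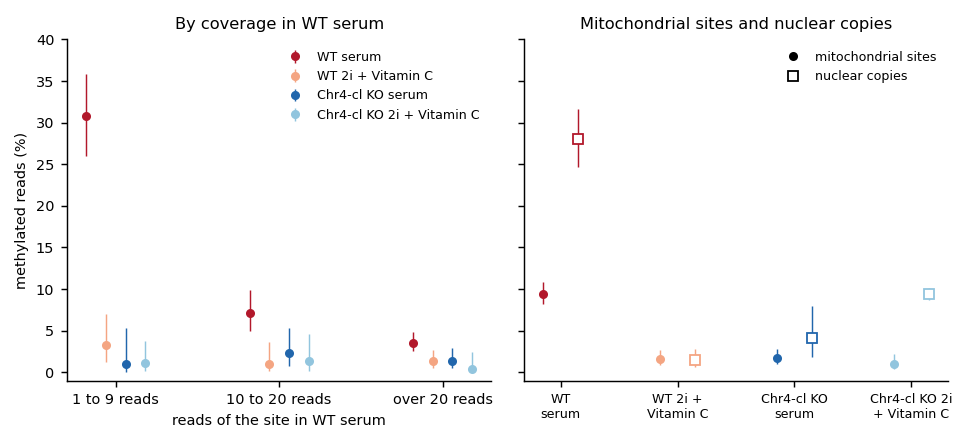
Left, methylated reads (%) at mitochondrial sites grouped by their reads in WT serum, for the 4 libraries. Right, the same pooled over mitochondrial sites (filled circles) and over the CpG sites of their nuclear copies (open squares). Bars are exact 95% intervals, and WT serum falls from 30.7% to 3.53% with depth while its nuclear copies stand at 28.1%.

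In the tables of WT serum and Chr4-cl KO 2i + Vitamin C the chromosome order starts over part way, as if a further table had been appended. Of their mitochondrial rows, 22 of 185 and 25 of 89 came from the appended part, and no mitochondrial position was listed more than once. Without these parts WT serum had 169 of 1861 reads methylated (9.08%) and Chr4-cl KO 2i + Vitamin C 5 of 581 (0.861%). WT serum thus stayed the highest library.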

How the data were processed

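RRBS-seq tables of 4 mouse ES cell libraries, 1 per combination of genotype and medium, were used. The authors digested DNA with MspI, sequenced 50 bp paired-end reads, trimmed them with Trim Galore (and a further 5 nt from the start of read 2 and 3 nt from read ends), and mapped them to mm9 with Bismark; versions are not given in the sources used here. The deposited columns hold, per CpG dyad with both strands joined, a fraction methylated and the counts behind it (all reads, then methylated ones), without normalization for depth. The fraction matched the counts, and only the counts were used. Reads over all listed sites numbered 70134758 (WT serum), 90649194 (WT 2i + Vitamin C), 88376738 (Chr4-cl KO serum) and 42672691 (Chr4-cl KO 2i + Vitamin C).

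All rows on chrM were taken. Positions were 1-based and each fell on a CpG of the mm9 (NCBIM37) sequence; genes came from its GENCODE annotation. Methylated and unmethylated reads were compared by two-sided Fisher's exact tests, with Benjamini-Hochberg adjustment over all genomic sites with 10 or more reads in both libraries, all 1-kb stretches with 100 or more, or 22 chromosomes. Nuclear copies were located with blastn 2.17.0 (e-value up to 1e-10). The tests were tested on simulated data. Alternatives were other coverage minimums, thinned counts, other stretches, sites left out and other floors. Named sites were the 5 with the most methylated reads in WT serum (ties kept), any called site, and the most-read site of each library. The sites, lists and tests were chosen with earlier results of these data known. Scripts used Python 3.11.15, scipy 1.17.1, numba 0.67.0, pandas 2.3.3, numpy 2.4.6, samtools 1.23.1 and matplotlib 3.10.9.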

Additional observations from a re-analysis of the deposited data

How the results depend on the processing

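No paired analysis was possible because each condition had 1 library, and for the same reason no library could be left out as a replicate. Over sites with 10 or more reads in all 4 libraries, the serum difference of KO from WT became 0.514 points and that of 2i + Vitamin C from serum in WT 1.27 points, both reversed; these are 5 sites. With reads at nuclear copies added, an alternative chosen after seeing the data, the KO difference in 2i + Vitamin C became 7.08 points and that of the media in KO 6.48 points, also reversed. Pooling only sites with 10 or more reads in both libraries, also chosen after seeing the data, left -1.39 points in serum, no longer past the threshold. The unweighted mean over those sites gave -3.12 points in serum, -2.45 in 2i + Vitamin C and -3.17 between the media in WT. The cause of these shifts was not tested. Of 44 alternatives for the pooled differences, 36 were counted as unchanged in direction and side of the threshold. Among them were those without the top 1 or 5 sites, without CCGG sites and without stretches with a nuclear copy. Keeping positions listed more than once, also among them, could not change a value, since no mitochondrial position was. The unweighted mean for the media in KO, -0.774 points, had no test and was counted because it lay within the main interval.

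At a minimum of 5 reads, 1 site was called between the media in WT (0 in the main test), and the other 23 alternatives for sites left 0 called. Among these, a minimum change of 20 points could not raise a count of 0. A minimum of 20 reads left 0 sites to test between the media in KO. With 500-bp stretches, and with sites of 10 reads in both libraries, 0 stretches were called in serum and 0 between the media in WT, where the main test called 1 each. The nuclear level of unmethylated sites was 1.04%, 1.28%, 1.46% and 0.940% with sites having no methylated read in the other libraries, and 1.48%, 1.75%, 2.20% and 1.09% with a limit of 5%. At sites with 10 or more reads, mitochondrial reads made up 0.00238%, 0.000726% and 0.000593% of all reads in WT serum, WT 2i + Vitamin C and Chr4-cl KO serum. The top 5 sites ranked by share at 20 or more reads held 41.5% of the methylated reads of such sites in WT serum and 100% in the other 3 libraries, and 100% in all 4 among sites with 10 or more reads in all libraries, with at most 3 methylated reads left. Depth limits what single sites can show, since the median read site had 2 to 4 reads.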
